A study of Sus scrofa with 12 samples.

Results

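The genes of WNT signalling at the cell surface, with the Axins of the cytoplasm, were examined in the testes and epididymides of male Banna mini-pigs, an inbred line (BMI) of small pigs. Members were chosen by gene name, with earlier results of these data known. They were every row named as a numbered WNT, Frizzled (FZD), SFRP or R-spondin (RSPO), as a Dickkopf (DKK), or as LGR4, LGR5, LGR6, FRZB, WIF1, LRP5, LRP6, AXIN1 or AXIN2. This gave 50 of the 30640 gene rows: 18 WNT ligands, 4 R-spondins, 10 Frizzled receptors, 2 LRP co-receptors, 3 LGR receptors, 6 secreted antagonists that bind WNT, 5 Dickkopf genes (DKKL1 among them) and 2 Axins. A further ligand name of this pattern, WNT4, was not analysed here.

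WNT proteins are secreted lipid-modified ligands that bind a Frizzled receptor together with the co-receptor LRP5 or LRP6, upon which the destruction complex built on Axin stops degrading beta-catenin, and beta-catenin drives transcription with TCF and LEF factors. R-spondins act through LGR4, LGR5 and LGR6 to keep Frizzled receptors on the cell surface. SFRPs and WIF1 bind the ligands outside the cell, while Dickkopfs 1, 2 and 4 act on LRP5 and LRP6. In the mouse, WNT signals are used in the gonad by somatic and germ cells and in the epididymis by the duct, where they serve its growth and coiling.

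Each tissue was represented by 5 short-read libraries, numbered 1 to 5, from adult, untreated BMI boars. Per the labels the boars were 12 months old, but the headers of the files list ages of 12, 12, 11, 17 and 11 months from replicate 1 to replicate 5. The headers carry the same 5 animal numbers in testis and epididymis, so replicates of 1 number come from 1 boar. All boars belong to 1 inbred line, and the labels do not say which segment of the epididymis was taken. The p-values below rest on the spread among 5 libraries per tissue.

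Library totals were 18715154 to 30211957 reads in testis and 17980578 to 21937263 reads in epididymis. Levels of 1 gene are given as CPM, the count per 1000000 reads of the library. Where no read was found, up to 3 reads remain possible, which is 0.0993 to 0.167 CPM depending on the library, for counting error only. Haploid germ cell markers summed to 15540 to 18520 CPM in testis and 71.0 to 624 CPM in epididymis, with 10 of 10 called higher in testis. Epididymal epithelium markers summed to 66.2 to 164 CPM in testis and 15460 to 29300 CPM in epididymis, with 9 of 9 called higher in epididymis. Testis replicate 4 was the only testis library low in small structural RNA (94.9 CPM, against 15060 to 16200 CPM in the other 4 testis libraries and 119 to 187 CPM in epididymis). Epididymis replicate 3 stood apart in its duct markers, whose values are given with the spread of the members. The tissues differ in their cells throughout, and in such bulk samples fewer cells of a type and less RNA per cell cannot be told apart. Apart from testis replicate 4, the content of small structural RNA went with tissue. Any effect of this RNA content therefore cannot be told apart from tissue in the main comparison.

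The WNT repertoire differed in make-up between the tissues. Testis stood above epididymis most, among the tested members, in the Dickkopf-like gene DKKL1, the ligand WNT3 and the receptors FZD9 and FZD3, and held close to no R-spondin. Epididymis held R-spondins 1 and 3, the antagonists SFRP2, SFRP4 and WIF1, the ligands WNT6 and WNT7B and the receptors FZD1, FZD6 and FZD7. Of 39 members that passed the filter on low counts, 9 were called higher in testis against 23 in epididymis by edgeR's quasi-likelihood test at an adjusted p under 0.05, and 7 were not called. Across all 17225 genes tested, 36.6% were called on the testis side and 37.8% on the epididymis side, so 74.4% were called in either direction. The members' shares were 23.1% and 59.0%.

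The median log2 fold change, testis over epididymis, was -1.61 over the 39 tested members and -0.07 over all genes tested. The libraries of the tissues did not overlap in 26 of the 39 members tested, 5 with testis above and 21 with epididymis above, where 61.4% of all genes tested did not overlap, 32.1% with testis above and 29.3% with epididymis above. Over all 50 members, tested or not, 8 had testis above and 21 had epididymis above. Set against the epididymis libraries on its own, testis replicate 4 gave 42 tested members, of which 4 were higher in testis and 12 higher in epididymis. Of 18896 genes, 34.7% were called in that comparison, 23.4% on the testis side and 11.4% on the epididymis side. No member that was called changed its direction there. WNT2, WNT5A, WNT5B, WNT6, WNT9A, WNT10A, WNT10B, WNT11, FZD1, FZD4, FZD10, LGR4, LGR6, WIF1, DKK3 and AXIN1 lost their call.

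**Figure D1:**
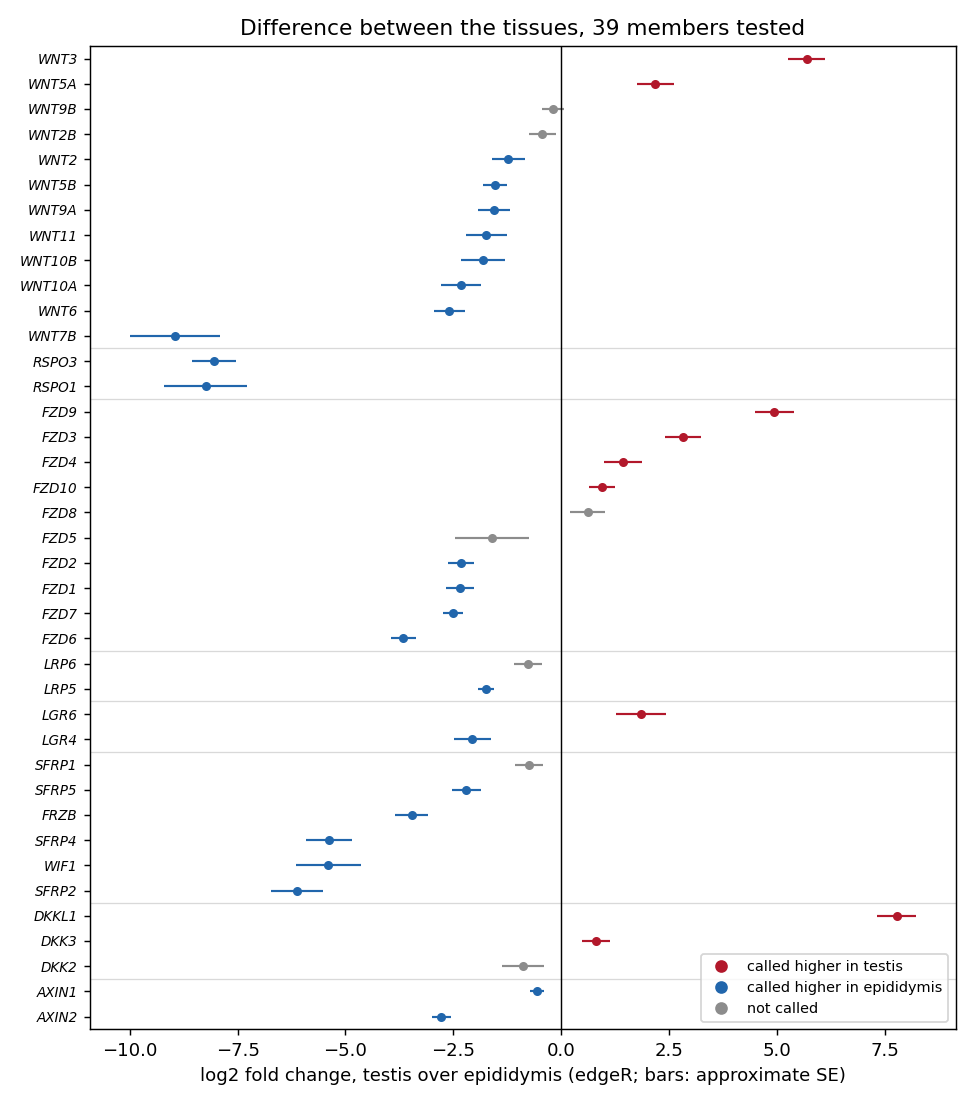
Log2 fold change of the 39 tested members, testis over epididymis (x axis), with approximate standard errors as bars, ordered within each class of gene (y axis); red points were called higher in testis, blue ones higher in epididymis and grey ones were not called. The values farthest from 0 are 7.77 for DKKL1 and 5.68 for WNT3 on the testis side, and -8.95 for WNT7B and -8.24 for RSPO1 on the epididymis side.

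WNT3 was the leading ligand of the testis. It is a ligand of the beta-catenin branch that is required for axis formation in the mouse embryo (chromosome 12, 17627291 to 17681197 on Sscrofa11.1). WNT3 had 157, 141, 149, 140.5 and 135 CPM in testis replicates 1 to 5, against 1.63, 1.48, 5.79, 4.23 and 1.37 CPM in epididymis replicates 1 to 5. Its 5 testis values lay close together and the tissues did not overlap. The log2 fold change was 5.68 ± 0.43 (approximate SE), or 51.4-fold, with an edgeR adjusted p of 3.33e-07. WNT5A, a ligand best known for the branches that do not use beta-catenin (chromosome 13, 37344684 to 37367215), had 52.7, 66.5, 47.5, 25.2 and 55.5 CPM in testis, against 5.09, 5.97, 11.5, 9.79 and 23.2 CPM in epididymis. The lowest testis value, in replicate 4, was just above the highest epididymis value, in replicate 5. The WNT5A log2 fold change was 2.18 ± 0.43 (edgeR adjusted p 0.000599). Against testis replicate 4 alone it was 1.27, with an adjusted p of 0.234.

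WNT8A, an early embryonic ligand in vertebrates, was read almost only in testis. It had 15.9, 13.9, 15.1, 0.427 and 14.9 CPM in testis, against 0, 0, 0.0912, 0 and 0 CPM in epididymis. Replicate 4, the testis library low in small structural RNA, held far less of it than the other 4. The filter asks for a minimum level in as many libraries as a tissue has. Testis replicate 4 fell below that level, so WNT8A was not tested. In all, 1430 reads in testis stood against 2 in epididymis, a ratio of 614 per read sequenced. Its 95% counting interval, 170 to 5075, pools the libraries and leaves out the spread between them. Testis replicate 4 held 8 reads, against 310 to 421 in the other 4. WNT8A was chosen for description after its values were seen, as were the other members given below with values of single libraries that fall outside the naming rule. WNT7A, with 40 reads in testis and 1 in epididymis, and WNT8B, with 115 and 8 reads, were also too low for the test, and in both every testis library exceeded every epididymis library. The WNT8B row lies across SEC31B, a gene of the secretory pathway at 29.9 CPM in testis and 14.0 CPM in epididymis, and the strand setting of the counting is not given in the sources used here.

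Of 12 WNT ligands tested, 2 were called higher in testis (16.7%), 8 higher in epididymis (66.7%) and 2 were not called. Over all genes tested, 36.6% and 37.8% were called on these sides. The filter left out WNT7A, WNT8A and WNT8B, in each of which every testis library exceeded every epididymis library. Over all 18 ligands the libraries did not overlap in 5 with testis above and in 6 with epididymis above. Among all genes tested, 32.1% and 29.3% did not overlap on these sides. WNT7B, a ligand of epithelia (chromosome 5, 3521412 to 3572322), had 0.0512, 0.0331, 0.0463, 0 and 0.0411 CPM in testis, against 5.55, 8.54, 10.8, 8.90 and 66.5 CPM in epididymis. In testis this amounts to 4 reads in 5 libraries, and in epididymis replicate 5 stood far above the rest. The log2 fold change of WNT7B was -8.95 ± 1.05 (edgeR adjusted p 9.02e-06), and -7.67 without epididymis replicate 5. WNT6, also an epithelial ligand, had 2.20, 1.59, 2.59, 2.30 and 1.11 CPM in testis, against 9.27, 17.4, 9.98, 17.8 and 5.92 CPM in epididymis. Its tissues did not overlap, and its log2 fold change was -2.60 ± 0.36 (edgeR adjusted p 4.57e-05).

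The other ligands called higher in epididymis were WNT10A (-2.33), WNT10B (-1.81), WNT11 (-1.74), WNT9A (-1.56), WNT5B (-1.53) and WNT2 (-1.23), each value a log2 fold change of testis over epididymis. Of these, WNT10B (mean 0.517 CPM in testis and 1.89 CPM in epididymis) and WNT2 (0.604 and 1.43 CPM) overlapped between the tissues. The WNT10B row also overlaps that of WNT1. The WNT5B row overlaps FBXL14, an F-box gene that stood at 19.4 CPM in testis and 71.1 CPM in epididymis. WNT11 came to -1.14 when epididymis replicate 3 was left out. WNT2 came to -1.14 with an edgeR adjusted p of 0.0565 when the boar was added as a replicate block. WNT9B, a ligand of duct epithelium in the mouse kidney, is the neighbour of WNT3 on chromosome 12, with 27.8 kb between the genes. It had 14.3, 10.9, 12.6, 12.2 and 11.4 CPM in testis, against 9.88, 15.6, 17.1, 21.0 and 8.28 CPM in epididymis. The testis values fell inside the epididymis range, and WNT9B was not called (log2 fold change -0.19 ± 0.25, edgeR adjusted p 0.493). WNT6 and WNT10A, 7.8 kb apart on chromosome 15, were both higher in epididymis. WNT2B, whose row overlaps ST7L (60.3 CPM in testis and 25.9 CPM in epididymis), was not called either, at -0.44. WNT1 had 0 reads in testis and 1 in epididymis, WNT3A 47 and 39, and WNT16 29 in each tissue.

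Levels of different genes can be compared per length, as TPM (transcripts per 1000000), computed from the count and the gene length in the files. Summed over the 18 ligands, WNT stood at 136 ± 13.4 TPM in testis and 63.8 ± 18.1 TPM in epididymis (SD, n = 5 each). WNT3 made up 66.1 ± 4.58% of this sum in testis and 2.56 ± 1.42% in epididymis. The tissues did not overlap in this share (exact two-sided permutation p 0.007937, the smallest that 5 against 5 libraries can give; 0.01302 adjusted over the 41 shares of members in their classes that were tested). WNT6 took 1.93 ± 0.623% in testis and 24.7 ± 11.14% in epididymis, and WNT7B took 0.0149 ± 0.00866% in testis and 16.4 ± 19.0% in epididymis, with the same exact permutation p. In replicate 5 alone the WNT7B share of the epididymis reached 50.4%. Shares within a class sum to 100%, so they do not move independently. WNT2B, which was not called, gave the same exact permutation p for its share, so this p does not single out a member. In these tests all 10 libraries were exchanged freely, while each boar gave 1 library of each tissue. With libraries exchanged only within a boar, an alternative added after the data were seen, the exact two-sided p cannot fall below 0.0625, so no share can pass there. It was 0.0625 for each of these 3 shares, with the same direction in 5 of 5 boars.

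**Figure D2:**
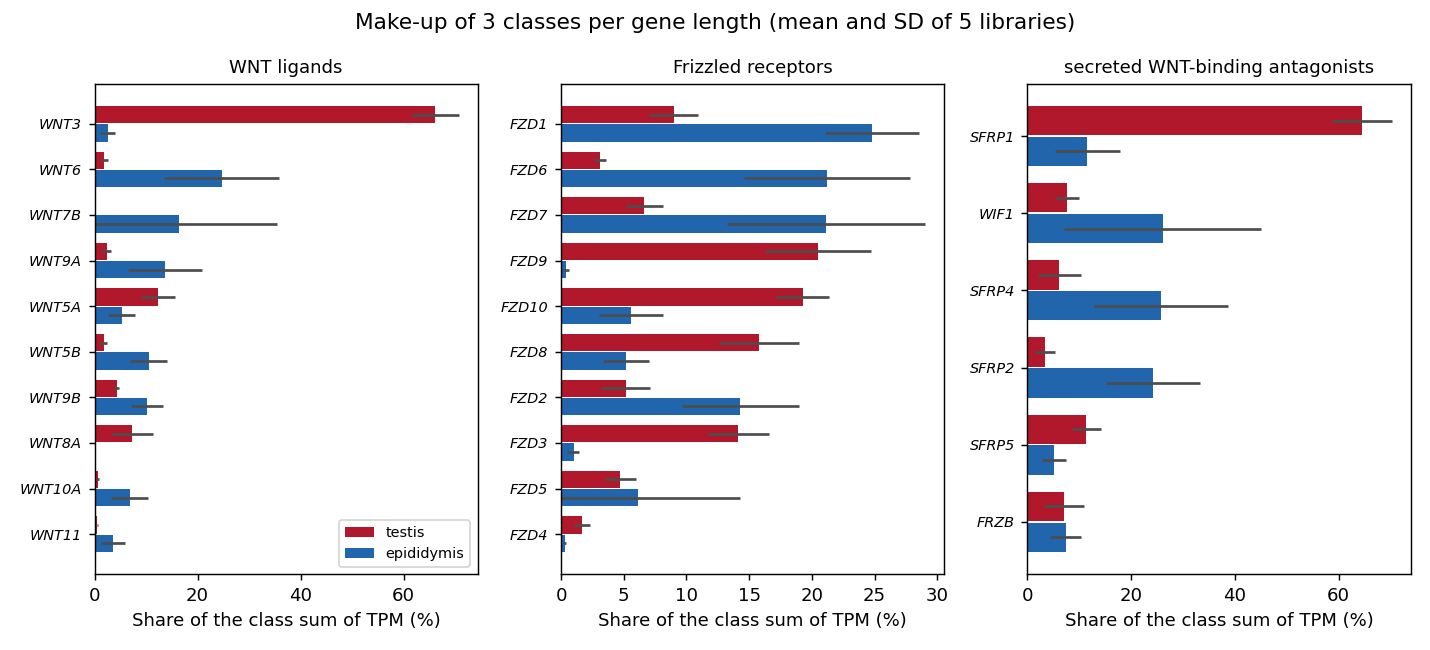
Share of members in the summed TPM of their class (x axis, percent) for ligands, Frizzled receptors and secreted antagonists, with the testis bar in red above the epididymis bar in blue and lines for the SD of 5 libraries. WNT3 makes up 66.1% of the ligands in testis and 2.56% in epididymis, and SFRP1 64.5% of the antagonists in testis and 11.5% in epididymis.

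R-spondins, the secreted ligands of the LGR receptors, were nearly absent from the testis libraries. RSPO3 (chromosome 1, 35985985 to 36066432) had 0.0512, 0.132, 0.139, 0.160 and 0.287 CPM in testis, against 38.4, 85.5, 31.8, 32.5 and 28.1 CPM in epididymis. Replicate 2 was the highest epididymis library, and no testis library came near the epididymis range. Its log2 fold change was -8.05 ± 0.51, or 266-fold lower in testis (edgeR adjusted p 1.01e-07). RSPO1, which acts in ovary formation in the mouse, had 0, 0, 0.185, 0.0534 and 0 CPM in testis, against 12.7, 36.6, 5.70, 5.73 and 15.2 CPM in epididymis. Replicate 2 was again the highest, and testis held 5 reads in all. The fitted log2 fold change of RSPO1 was -8.24 ± 0.97 (edgeR adjusted p 9.16e-06). It rests on few testis reads and ranged to -9.77 without testis replicate 3 and -7.60 without epididymis replicate 2. RSPO2 had 10 reads in testis and 3 in epididymis, and RSPO4 had 4 and 0, so neither was tested. The 4 R-spondins summed to 0.393 ± 0.195 TPM in testis and 58.0 ± 32.4 TPM in epididymis (SD, n = 5 each).

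Their receptors were present in both tissues. LGR4, the broadly expressed R-spondin receptor (chromosome 2, 32871837 to 32979150), had 22.9, 18.4, 15.5, 29.2 and 20.3 CPM in testis, against 62.0, 35.9, 63.2, 229.6 and 66.9 CPM in epididymis. Epididymis replicate 4 was far above the others, and the tissues did not overlap. The log2 fold change was -2.06 ± 0.43 (edgeR adjusted p 0.000895), and -1.45 without that library, with an adjusted p of 0.000251. LGR6, a receptor of the same group, went the other way, with 5.74, 4.30, 6.20, 2.14 and 4.07 CPM in testis, against 0.815, 1.37, 3.05, 1.06 and 0.147 CPM in epididymis. Testis replicate 4 fell below epididymis replicate 3, so the tissues overlapped, and the log2 fold change was 1.84 ± 0.58 (edgeR adjusted p 0.0126). LGR5, a stem cell marker in the gut of the mouse, had 0.564, 0.397, 0.185, 0.321 and 0.493 CPM in testis, against 0.407, 0.986, 2.23, 3.11 and 0.147 CPM in epididymis. It overlapped between the tissues and did not pass the filter. LGR6 made up 19.3 ± 8.22% of the summed TPM of the 3 receptors in testis and 2.18 ± 2.08% in epididymis (exact permutation p 0.007937, adjusted 0.01302, and 0.0625 within boars).

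All 10 Frizzled receptors were tested, 4 were called higher in testis (40%), 4 higher in epididymis (40%) and 2 were not called. These shares lay near the 36.6% and 37.8% of all genes tested. FZD9 (chromosome 3, 10753294 to 10762812) had 12.4, 10.5, 10.4, 22.4 and 10.8 CPM in testis, against 0.509, 0.493, 0.729, 0.334 and 0.0979 CPM in epididymis. The tissues did not overlap, and testis replicate 4 was the highest library. Its log2 fold change was 4.93 ± 0.45, or 30.6-fold (edgeR adjusted p 1.48e-06). The FZD9 row overlaps BAZ1B, a chromatin remodeller gene at 45.4 CPM in testis and 95.9 CPM in epididymis. FZD3, a receptor used in planar polarity and axon guidance in the mouse (chromosome 14, 12281127 to 12394768), had 36.7, 25.0, 26.0, 30.7 and 32.8 CPM in testis, against 2.19, 2.03, 7.48, 8.29 and 2.25 CPM in epididymis. Every testis library lay above every epididymis library, and the log2 fold change was 2.82 ± 0.41 (edgeR adjusted p 6.59e-05). FZD10 (0.95) and FZD4 (1.43) were also called higher in testis, on the same log2 scale, but their tissues overlapped.

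FZD6, a receptor of planar polarity in hair and skin of the mouse (chromosome 4, 33811159 to 33844556), had 3.07, 3.41, 2.82, 3.53 and 3.53 CPM in testis, against 37.4, 18.7, 49.0, 63.4 and 44.3 CPM in epididymis. The tissues were far apart, and the log2 fold change was -3.66 ± 0.29 (edgeR adjusted p 4.93e-07). FZD1 (chromosome 9, 71346994 to 71356488) had 3.18, 2.52, 4.07, 6.73 and 4.47 CPM in testis, against 14.8, 13.7, 31.8, 31.1 and 17.4 CPM in epididymis. Its tissues did not overlap either, with replicates 3 and 4 as the high epididymis libraries, and its log2 fold change was -2.35 ± 0.33 (edgeR adjusted p 4.18e-05). The FZD1 row lies across MTERF1, a mitochondrial transcription factor gene at 5.77 CPM in testis and 15.1 CPM in epididymis. FZD7 (8.10 ± 1.15 CPM in testis and 46.5 ± 11.5 CPM in epididymis) and FZD2 (2.27 ± 0.829 and 11.5 ± 2.62 CPM; SD, n = 5 each) were the other 2 called higher in epididymis without overlap.

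FZD5, a receptor of gut and eye epithelia in the mouse, and FZD8 were not called. FZD5 had 10.6, 11.9, 6.06, 13.0 and 12.2 CPM in testis, against 7.23, 1.81, 127, 27.1 and 8.72 CPM in epididymis. A single library, epididymis replicate 3, set the epididymis mean, while 3 of the 5 epididymis libraries lay below most testis libraries. FZD5 had a log2 fold change of -1.61 ± 0.86 (edgeR adjusted p 0.108). It was -0.02 (adjusted p 0.976) without epididymis replicate 3, -0.18 with the replicate block, and -1.90 (adjusted p 0.035) without epididymis replicate 2. FZD8 stood at 0.61 (edgeR adjusted p 0.182) and passed the threshold without epididymis replicate 3, at 0.99 and an adjusted p of 0.0205.

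The receptor class as a whole summed to 64.2 ± 10.3 TPM in testis and 114 ± 39.8 TPM in epididymis (SD, n = 5 each). In testis the largest shares were those of FZD9 (20.5 ± 4.21%), FZD10 (19.3 ± 2.11%), FZD8 (15.8 ± 3.17%) and FZD3 (14.2 ± 2.44%). In epididymis they were those of FZD1 (24.8 ± 3.74%), FZD6 (21.2 ± 6.64%), FZD7 (21.1 ± 7.86%) and FZD2 (14.3 ± 4.68%). FZD9 fell to 0.381 ± 0.221% of the class in epididymis, and FZD6 stood at 3.11 ± 0.496% in testis. For all 8 of these receptors the libraries of the tissues did not overlap in share. Each had an exact two-sided permutation p of 0.007937 (0.01302 adjusted over the 41 shares, and 0.0625 within boars). The 8 were picked by share in the same libraries and FZD4 gave the same p, so it does not single them out.

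LRP5, a co-receptor of WNT (chromosome 2, 4533721 to 4653997), had 68.2, 77.5, 81.4, 68.2 and 84.0 CPM in testis, against 209, 199, 238, 300.3 and 347 CPM in epididymis. No library of one tissue reached the range of the other. Its log2 fold change was -1.75 ± 0.19, or 3.35-fold lower in testis (edgeR adjusted p 6.57e-06). Its partner LRP6 had 29.2, 25.9, 26.1, 20.8 and 28.7 CPM in testis, against 24.2, 17.9, 64.9, 64.3 and 58.3 CPM in epididymis. Epididymis replicate 1 lay inside the testis range, replicate 2 below it and the other 3 well above it. LRP6 was not called (log2 fold change -0.77 ± 0.33, edgeR adjusted p 0.0525). It passed the threshold when epididymis replicate 1 was left out, at -0.93 (adjusted p 0.024), or epididymis replicate 2, at -0.97 (adjusted p 0.00647).

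Of the 6 secreted antagonists that bind WNT, 5 were called higher in epididymis (83.3%, against 37.8% of all genes tested) and none higher in testis. WIF1 (chromosome 5, 29450442 to 29543913) had 1.69, 1.42, 1.30, 2.35 and 1.64 CPM in testis, against 63.4, 152, 21.3, 8.01 and 104 CPM in epididymis. The tissues did not overlap, although the epididymis libraries ranged 19.0-fold among themselves. The log2 fold change of WIF1 was -5.40 ± 0.75 (edgeR adjusted p 4.1e-05). SFRP2 (chromosome 8, 75337311 to 75345926) had 0.461, 0.265, 1.25, 0.214 and 0.369 CPM in testis, against 34.2, 65.3, 44.4, 23.1 and 15.1 CPM in epididymis. SFRP4 (chromosome 9, 108404314 to 108414335) had 0.512, 0.298, 1.02, 1.60 and 0.452 CPM in testis, against 18.7, 15.3, 39.9, 38.3 and 49.5 CPM in epididymis. Neither of these secreted Frizzled-like proteins overlapped between the tissues. Their log2 fold changes were -6.13 ± 0.60 for SFRP2 (edgeR adjusted p 2.59e-06) and -5.38 ± 0.53 for SFRP4 (adjusted p 2.55e-06).

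FRZB (-3.47) and SFRP5 (-2.20), 2 further members of the same protein family, were lower in testis on that scale, also without overlap. SFRP1 had 15.8, 13.8, 24.6, 13.4 and 14.2 CPM in testis, against 33.5, 12.2, 43.6, 34.2 and 17.8 CPM in epididymis. Its tissues overlapped, since epididymis replicate 2 lay below every testis library and testis replicate 3 above epididymis replicate 5. SFRP1 was not called (log2 fold change -0.75 ± 0.33, edgeR adjusted p 0.0551). With the replicate block it was called at -0.67 (adjusted p 0.0489). It was also called without testis replicate 3 (adjusted p 0.034), epididymis replicate 2 (adjusted p 0.00989) or epididymis replicate 5 (adjusted p 0.0328).

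The 6 antagonists summed to 15.2 ± 3.38 TPM in testis and 148 ± 25.1 TPM in epididymis (SD, n = 5 each). SFRP1 made up 64.5 ± 5.85% of the sum in testis and 11.5 ± 6.25% in epididymis (exact two-sided permutation p 0.007937, adjusted 0.01302, and 0.0625 within boars). SFRP1 itself was not called, and the other 5 antagonists were higher in epididymis without overlap. Its share therefore largely repeats their difference. WIF1 made up 7.59 ± 2.34% in testis and 26.1 ± 19.0% in epididymis, a difference that did not pass (exact permutation p 0.1111, adjusted 0.1302, and 0.1875 within boars). Smooth muscle markers, which mark the wall of the duct, summed to 286 to 446 CPM in testis and 5751 to 16560 CPM in epididymis, with 7 of 7 called higher in epididymis. Markers of fibroblasts and matrix summed to 336 to 824 CPM in testis and 1555 to 5378 CPM in epididymis, with 6 of 7 called higher in epididymis. The part of these cells in the levels of the antagonists and R-spondins was not tested.

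**Figure D3:**
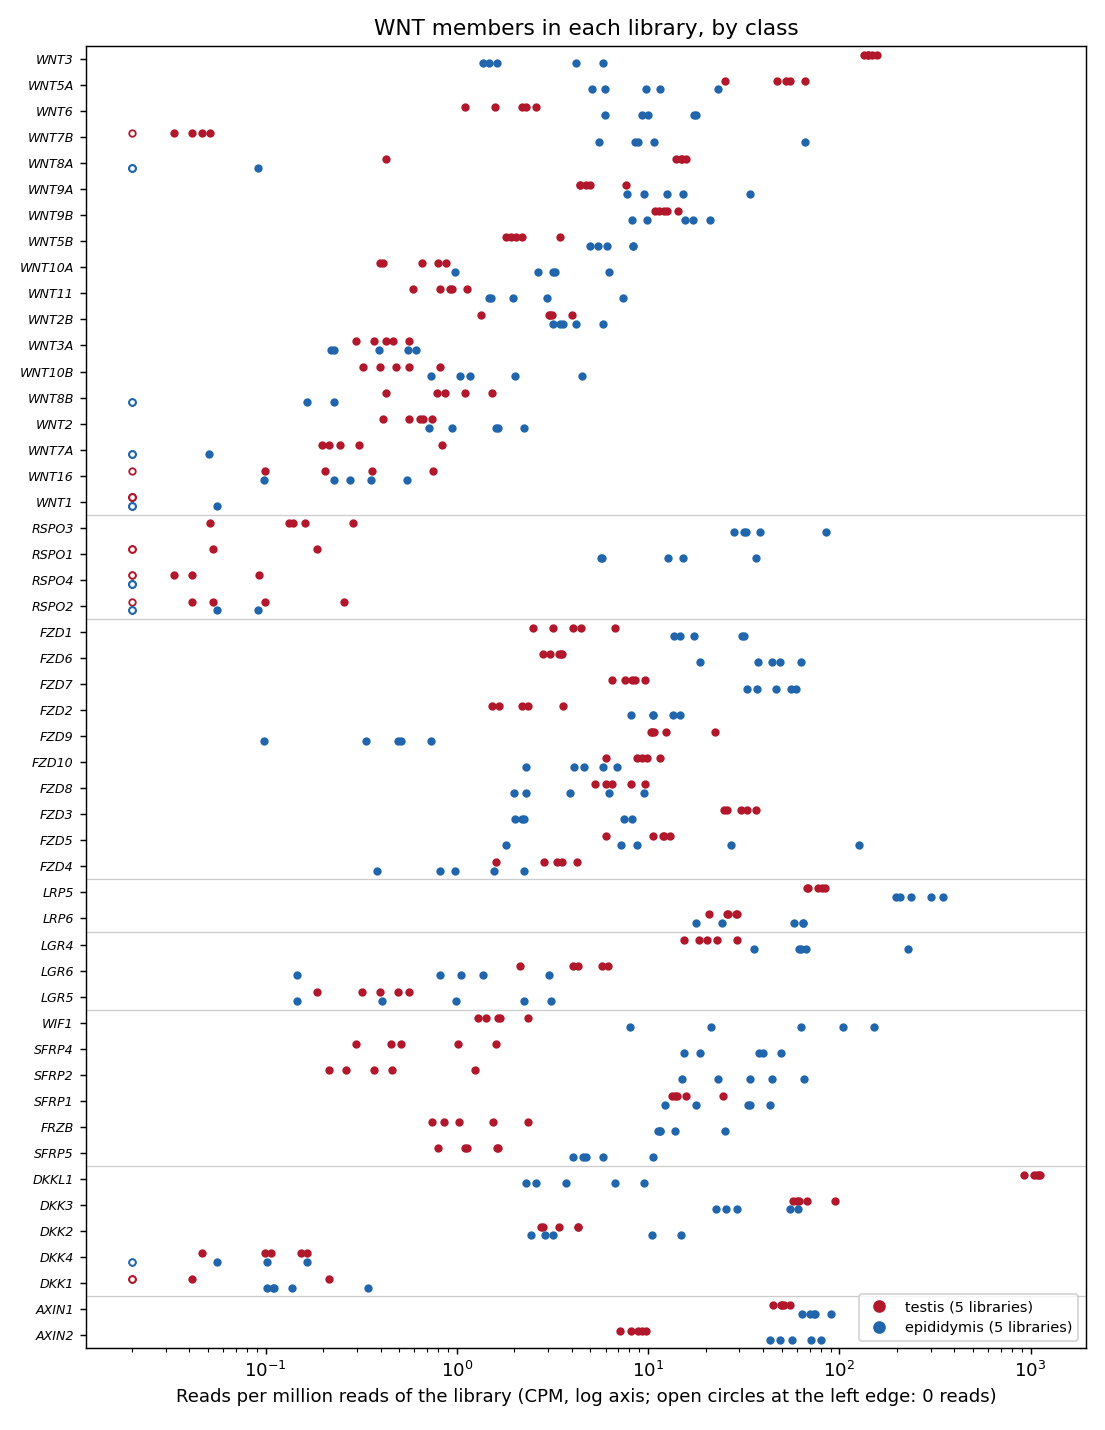
CPM (x axis, log10) of all 50 members (y axis, by class), with 1 point per library, the 5 testis libraries in red above the 5 epididymis libraries in blue, and open circles at the left edge for 0 reads. DKKL1 lies at 921 to 1122 CPM in testis and 2.30 to 9.57 CPM in epididymis, and RSPO3 at 0.0512 to 0.287 CPM in testis and 28.1 to 85.5 CPM in epididymis.

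DKKL1, a Dickkopf-like gene that in the mouse is made in developing spermatids and found in the acrosome, was the most abundant member in testis per length. It (chromosome 6, 54462367 to 54468363) had 1122, 1044, 1075, 921 and 1112 CPM in testis, against 2.60, 3.72, 9.57, 6.73 and 2.30 CPM in epididymis. Testis replicate 4 was the lowest of the testis libraries, and the tissues were far apart. This made a log2 fold change of 7.77 ± 0.45, or 218-fold (edgeR adjusted p 6.08e-08). In epididymis DKKL1 was highest in replicates 3 and 4, where the haploid germ cell markers summed to 624 and 148 CPM, against 71.0 to 102 CPM in the other 3. Of the other members called higher in testis, WNT3, FZD3 and FZD4 were also highest in those 2 epididymis libraries. FZD9 and LGR6 were highest in epididymis replicate 3 but not second in replicate 4. WNT5A and DKK3 were highest in epididymis replicate 5, and FZD10 in replicate 2. The part of germ cells in these epididymis values was not tested.

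DKK3, a Dickkopf relative that does not act as the others do on LRP6, had 60.4, 68.2, 61.4, 94.8 and 57.4 CPM in testis, against 29.0, 55.5, 25.6, 22.8 and 61.2 CPM in epididymis. Epididymis replicate 5 reached into the testis range. DKK3 was called higher in testis (log2 fold change 0.81 ± 0.32, edgeR adjusted p 0.0348), but lost this call in 7 of 18 alternatives, with adjusted p-values of 0.0552 to 0.139. DKK2 was not called, at -0.89 (edgeR adjusted p 0.111). DKK1 and DKK4, inhibitors of LRP6, had 5 and 13 reads in testis and 16 and 6 reads in epididymis, and were not tested.

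The Axins, scaffolds of the complex that degrades beta-catenin, were both higher in epididymis. AXIN2, itself a transcriptional target of beta-catenin (chromosome 12, 12311293 to 12343207), had 7.12, 8.14, 9.30, 8.82 and 9.77 CPM in testis, against 43.7, 56.9, 80.6, 49.0 and 70.9 CPM in epididymis. The tissues did not overlap, and the log2 fold change was -2.78 ± 0.22, or 6.88-fold lower in testis (edgeR adjusted p 4.27e-07). The AXIN2 row overlaps CEP112, a centrosomal gene that stood at 26.5 CPM in testis and 3.01 CPM in epididymis. AXIN1 (chromosome 3, 41344908 to 41393999) had 49.5, 45.2, 55.0, 51.1 and 49.97 CPM in testis, against 73.7, 90.6, 63.9, 70.2 and 74.9 CPM in epididymis. It differed less but without overlap, at a log2 fold change of -0.56 ± 0.16 (edgeR adjusted p 0.00688). Against testis replicate 4 alone AXIN1 came to -0.45. With size factors of DESeq2 the median of all genes moved by 0.13 on the log2 scale.

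Ordered by level per length, the testis began with DKKL1 (2525 ± 234 TPM), WNT3 (89.5 ± 5.47 TPM), DKK3 (33.9 ± 6.84 TPM), AXIN1 (32.6 ± 2.15 TPM) and LRP5 (29.7 ± 3.26 TPM; SD, n = 5 each). DKKL1 and WNT3 each lay above the next member in every library, while the ranges of DKK3, AXIN1 and LRP5 overlapped. The epididymis began with LRP5 (95.2 ± 30.0 TPM), followed by AXIN1 (44.9 ± 4.57 TPM), WIF1 (41.0 ± 33.5 TPM), LGR4 (40.3 ± 38.3 TPM), SFRP4 (37.3 ± 18.5 TPM), SFRP2 (36.0 ± 16.6 TPM) and RSPO3 (35.6 ± 16.5 TPM). LRP5 stood clear of AXIN1, whereas each of the others overlapped the next in range.

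Beyond the members, 6 lists of other WNT pathway genes, chosen with earlier results of these data known, held 81 different genes that were tested. Of these, 9 were called higher in testis (11.11%) against 44 in epididymis (54.3%), with a median log2 fold change of -0.93. Across all genes tested the shares were 36.6% and 37.8%, and the median was -0.07. None of the 9 genes of WNT secretion and matrix handling was called higher in testis and 6 were called higher in epididymis (66.7%). They include WLS, which carries WNT proteins to the cell surface, at -1.46 ± 0.29 (edgeR adjusted p 0.000589), and the glypican GPC6 at -2.39 ± 0.33 (adjusted p 3.51e-05). The 16 other receptors and membrane regulators gave 0 and 12 (75%). APCDD1, a membrane inhibitor of WNT signalling, had 7.99, 6.22, 8.33, 8.23 and 9.57 CPM in testis, against 409.9, 400.3, 457, 246 and 415 CPM in epididymis. These ranges are far apart, and the log2 fold change was -5.57 ± 0.24 (edgeR adjusted p 1.37e-08). SOSTDC1, a secreted inhibitor that binds LRP5 and LRP6, had 0 reads in testis and 632 in epididymis, so it was at least 245-fold lower in testis, counted against 3 reads over the tissue.

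Of 21 cytoplasmic genes, 4 were called higher in testis (19.05%) against 9 higher in epididymis (42.9%). Of 13 nuclear partners of beta-catenin, these numbers were 3 (23.1%) and 5 (38.5%). The epididymis shares lay near the 37.8% of all genes tested, and the testis shares below the 36.6% of all genes tested. The casein kinase CSNK1G2, of a family that phosphorylates LRP6, stood at 2.39 ± 0.17 (edgeR adjusted p 1.88e-07), while its relative CSNK1G3 stood at -2.80 ± 0.26 (adjusted p 1.93e-06). Tankyrase TNKS, which marks Axin for degradation, stood at 1.40 ± 0.34 (edgeR adjusted p 0.00277), and NKD1, which binds Dishevelled and dampens the signal, at -4.55 ± 0.43 (adjusted p 1.87e-06). The transcription factor LEF1 had 57.5, 53.6, 60.2, 39.6 and 57.6 CPM in testis, against 4.17, 9.69, 2.83, 2.56 and 4.95 CPM in epididymis, a log2 fold change of 3.47 ± 0.39 (edgeR adjusted p 7.19e-06). Of its co-repressors, TLE4 stood at 3.36 ± 0.20 (edgeR adjusted p 7.87e-08) and TLE1 at -2.31 ± 0.20 (adjusted p 1.1e-06).

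In the planar polarity and other non-canonical list of 15 tested genes, 1 was called higher in testis (6.67%) against 7 higher in epididymis (46.7%). The shares over all genes tested were 36.6% and 37.8%. The testis gene was CELSR3, a seven-pass cadherin, at 5.56 ± 0.28 (edgeR adjusted p 2.53e-08). Its relative CELSR1 stood at -2.85 ± 0.66 (adjusted p 0.00203), and at -1.74 without epididymis replicate 3, and the phospholipase PLCB1 at -2.89 ± 0.39 (adjusted p 3.1e-05). Among 14 common transcriptional targets of beta-catenin, 2 were called higher in testis (14.3%) against 10 higher in epididymis (71.4%), with a median log2 fold change of -2.59. LEF1 and the Sertoli cell factor SOX9 were the 2 in testis. TBX3, a developmental repressor, had 4.15, 4.10, 5.83, 4.38 and 7.51 CPM in testis, against 136, 106, 130.2, 152 and 154 CPM in epididymis (log2 fold change -4.69 ± 0.23, edgeR adjusted p 2.45e-08). LEF1, NKD1 and APCDD1 are among the genes that stand in 2 lists.

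The spread of the members was wider in epididymis than in testis. Over the 39 members with an epididymis mean of at least 1 CPM, the median coefficient of variation was 53.8%, against 33.2% over 14741 such genes of the whole table. Over the 31 members with a testis mean of at least 1 CPM it was 24.6%, against 21.5% over 15723 genes. Epididymis replicate 3 was the highest library in 17 of the 39 members, or 43.6%, where it was the highest in 29.4% of all these genes. Epididymis replicate 1 was the highest in none of the 39, where it was the highest in 10.8% of all genes.

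FZD5 had the highest coefficient of variation, 153%, with epididymis replicate 3 at 127 CPM and the next library at 27.1 CPM, and 98.1% remained without replicate 3. WNT7B followed at 130%, with replicate 5 at 66.5 CPM and the other 4 at 5.55 to 10.8 CPM. Without that library its value was 25.6%. LGR4 varied by 85.4%, and by 24.9% without replicate 4, so in both genes a single library made most of the spread. The highest library exceeded the second by 4.67-fold for FZD5, 6.18-fold for WNT7B and 3.43-fold for LGR4, and these peaks came from 3 different boars. LGR5 (91.5%), WIF1 (85.3%) and LGR6 (84.2%) had smaller gaps, of 1.39-fold, 1.46-fold and 2.23-fold.

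Proximal duct genes, as known from the mouse, summed to 576, 421, 5332, 909 and 444 CPM in epididymis replicates 1 to 5, with 1.53 to 3.18 CPM in testis, and 5 of the 7 with a row were called higher in epididymis. The libraries of highest sums, replicates 3 and 4, were those where FZD5 was highest. These genes did not share 1 order either. In replicate 4 much of the sum was CST11, at 382 CPM against 0.490 to 2.35 CPM in replicates 1, 2 and 5. ROS1 was second highest in replicate 4 (16.2 CPM), but GPX5 (1.56 CPM) and LCN8 (35.5 CPM) were lowest there. Of the epididymal epithelium markers, LTF (547 CPM), CRISP1 (53.2 CPM) and SPINK14 (58.4 CPM) were lowest in replicate 3. The other epididymis libraries held 3751 to 6132, 1382 to 2680 and 2403 to 5270 CPM of them. GPX5 was highest in replicate 3, and NPC2 second highest. CDH1, EPCAM, KRT8 and KRT18 in replicate 3 lay inside the range of the other epididymis libraries. Basal cell markers did not share 1 order, since KRT14 had 864, 753, 126, 706 and 600.4 CPM over the same libraries and was lowest in replicate 3, whereas TP63 had 16.0, 12.9, 96.3, 84.7 and 14.0 CPM. KRT5 and ITGA6, the other basal markers, were highest in replicate 4 and second in replicate 3. Smooth muscle markers summed to 12350, 16560, 6932, 5751 and 11910 CPM. WIF1 and RSPO1 were highest in replicate 2, the library with the highest smooth muscle sum, and lowest in replicates 3 and 4, those with the lowest. Other antagonists and R-spondins did not share this order. RSPO3 and SFRP2 were also highest in replicate 2 but lowest in replicate 5, at 28.1 and 15.1 CPM. SFRP4 was lowest in replicate 2 (15.3 CPM), and SFRP1, SFRP5 and FRZB were highest in replicate 3. Markers of fibroblasts and matrix summed to 1720, 2133, 5378, 1555 and 4144 CPM. Adipocyte markers summed to 1.99, 1.48, 55.1, 14.8 and 0.588 CPM. The part of segment or cell make-up in the spread of these members was not tested, and with 5 libraries no correlation is given.

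**Figure D4:**
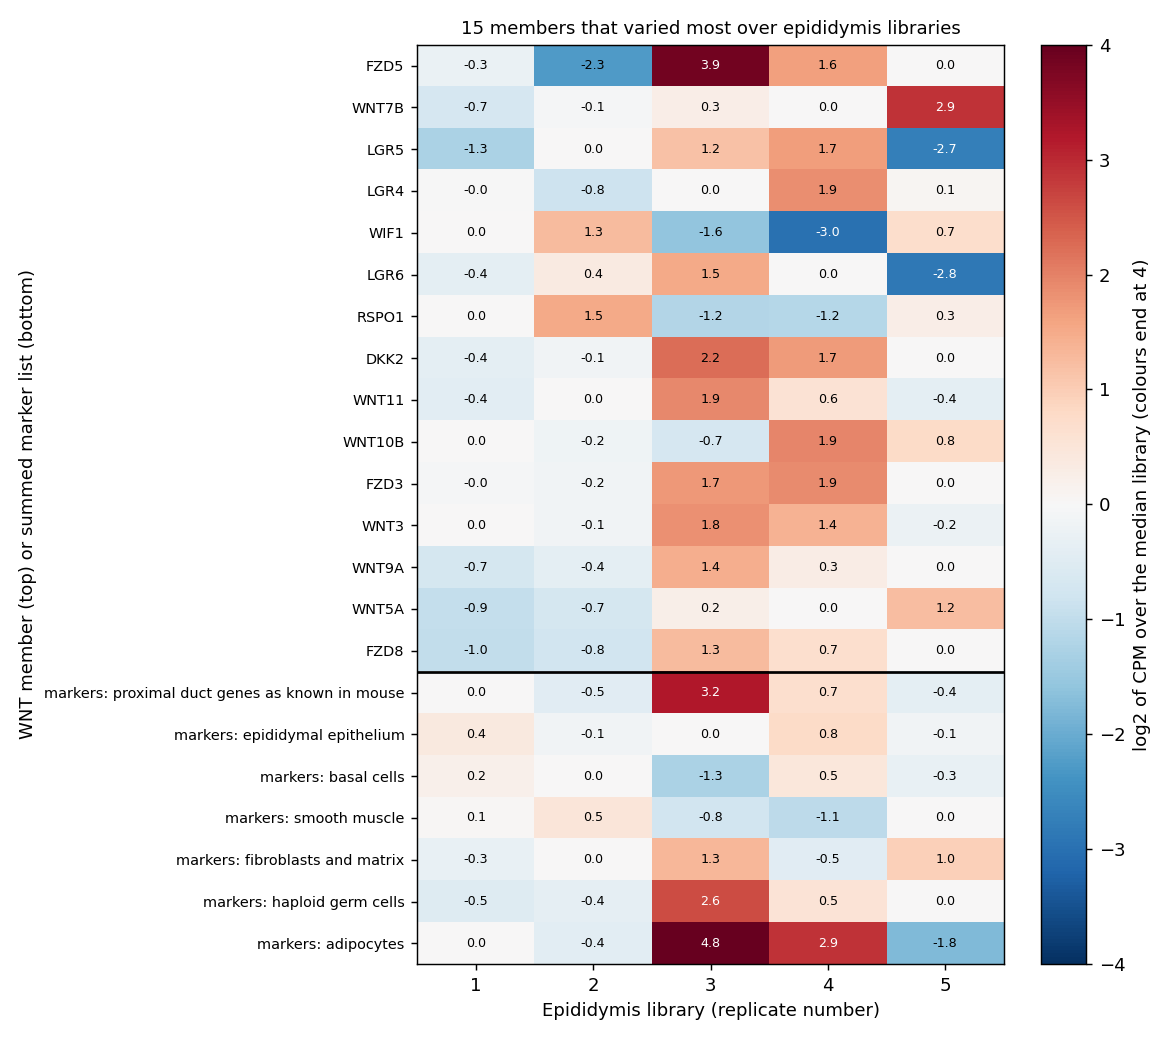
Level of the 15 members of widest spread (upper part) and of summed marker lists (lower part) in each epididymis library (x axis), as the log2 of the CPM over the median library, in red above it and in blue below. FZD5 and the proximal duct genes are both highest in replicate 3, at 127 and 5332 CPM, WNT7B is highest in replicate 5 at 66.5 CPM and LGR4 in replicate 4 at 229.6 CPM.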

How the data were processed

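The 5 testis and 5 epididymis short-read libraries were compared. Another 2 samples are pooled long-read libraries and were not used here. Poly(A) RNA was enriched on oligo(dT) beads, reverse transcribed with the SMARTer chemistry and PCR-amplified, per the labels' protocols, with no mention of molecular identifiers. The libraries were not alike in RNA content under this protocol. In the testis libraries other than replicate 4, small structural RNA stood at 15060 to 16200 CPM and histone RNA at 2030 to 2915 CPM. Testis replicate 4 held 94.9 and 76.09 CPM of these, and the epididymis libraries 119.1 to 187.3 and 59.79 to 295.4 CPM. Whether all libraries were prepared alike was not tested. Per the submitters' processing notes, cutadapt 3.0, STAR and featureCounts of Subread were used with the build Sscrofa11.1. No source used here gives the strand setting, the annotation release or the handling of multi-mapping reads, so values of overlapping genes are uncertain. The deposited values are raw counts per gene with a gene length, per the file headers. Coordinates are those of the RefSeq gene table of the same build, in which all 50 members were found by symbol.

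Counts were tested on the whole table with R 4.3.3 and edgeR 4.0.16 (filterByExpr, TMM, robust quasi-likelihood fit with tissue as the only term). This left 17225 genes, over which p-values were adjusted by Benjamini-Hochberg. Genes were called at an adjusted p under 0.05, and all log2 fold changes and all adjusted p-values of single genes are from this test unless another is named. Fold changes are after edgeR's shrinkage. Standard errors are approximate, being the unshrunken log2 fold change over the root of F. The procedure was tested on simulated data in which only a small part of the genes was changed. In the real data 74.4% of genes were called, so that check does not cover their setting. DESeq2 1.42.0 was an alternative test. The members and lists were chosen with earlier results of these data known. By rule, single-library values were given for called members without overlap (the 10 of highest TPM per tissue), for the 6 of widest epididymis spread and for uncalled members of at least 5 CPM in both tissues, and values of up to 2 genes per direction in each other list. Same-numbered libraries come from 1 boar, per the file headers. Their deviations from the tissue means correlated across genes at 0.00867 to 0.0893, against -0.0899 to 0.0944 between other numbers.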

Additional observations from a re-analysis of the deposited data

Results flagged for a closer look

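Every member with a mean of at least 1 CPM in a tissue was examined there, which gave 70 sets of 5 libraries, of which 14 held a library whose gap to the nearest of the others was over 0.71 of the whole range (Dixon's criterion). Chance gives such a library in about 1 of 20 sets. In epididymis these were 8 of 39 members, or 20.5%, where 11.9% of all genes at that level held such a library. In testis they were 6 of 31 members, or 19.4%, where 24.4% of all genes did.

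In epididymis replicate 3, FZD5 stood at 126.6 CPM (1.81 to 27.1 in the other 4 libraries), WNT9A at 34.1 (7.74 to 15.3), FRZB at 25.3 (11.3 to 13.9), SFRP5 at 10.6 (4.07 to 5.84) and WNT11 at 7.43 (1.48 to 2.95). RSPO3 stood at 85.5 CPM in epididymis replicate 2 (28.1 to 38.4 in the others), LGR4 at 229.6 in replicate 4 (35.9 to 66.9) and WNT7B at 66.5 in replicate 5 (5.55 to 10.8).

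Testis replicate 4, the testis library low in small structural RNA, had the highest values of DKK3 at 94.8 CPM (57.4 to 68.2 in the other 4 libraries), FZD9 at 22.4 (10.4 to 12.4), WNT9A at 7.64 (4.39 to 4.95) and WNT5B at 3.47 (1.80 to 2.19). It had the lowest value of WNT8A at 0.427 CPM (13.9 to 15.9 in the others). SFRP1 stood at 24.6 CPM in testis replicate 3 (13.4 to 15.8).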

How the results depend on the processing

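Over 18 alternatives in normalization, test, filter, library content, pairing and left-out libraries, no tested member reversed its direction. Of the 32 called members, 30 kept their call in every alternative that gave them a p, other than the comparison of testis replicate 4 alone with epididymis, the exceptions being DKK3 and WNT2. For WNT7B, 1 of the 30, DESeq2 gave no p, so it had 17 alternatives. In that comparison, which takes its spread from epididymis alone, 4 members and 5 other pathway genes were called higher in testis, and 12 members and 19 other pathway genes higher in epididymis. The median log2 fold change of the members was -1.33 with no filter on low counts, -1.23 without testis replicate 4 and epididymis replicate 3 together, and -1.76 to -1.14 leaving out 1 library at a time. Other pathway genes called higher in testis numbered 16 by DESeq2, 16 without those 2 libraries, and 9 to 14 leaving out 1 library. Their median log2 fold change was -0.66 without those 2 libraries and -0.93 to -0.58 leaving out 1. With no filter the median of all genes moved by 0.38 on the log2 scale, and without the R-spondin receptor peak in epididymis replicate 4 the testis over epididymis ratio of that class was 0.492. The replicate block changed the calls of SFRP1 (-0.67) and WNT2 (-1.14) and of no other member, while shares exchanged within boars cannot pass (smallest exact p 0.0625). WNT8A was called with no filter (8.89, edgeR adjusted p 2.44e-05). Members at a few reads in 1 tissue are limited by depth, and their fitted fold changes depend on the prior count.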
